A study of Mus musculus with 18 samples.

Results

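The pericentromere-proximal regions of mouse chromosomes 1 to 19 are the accessible regions in the first 2 Mb of assembled sequence next to each centromere. They were taken from ATAC-seq peak lists of 18 libraries of mouse embryonic stem (ES) cells. Overlapping peaks of all lists were merged, and a region belonged to the set when its midpoint lay from 3000000 to 5000000 on the mm9 build. This gave 5765 regions of the 377189 in the series, set against 359269 regions on the rest of the same chromosomes.

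ATAC-seq marks open chromatin with a transposase that cuts exposed DNA and tags it for sequencing, and stretches rich in cuts are called as peaks. The series concerns topoisomerase II, which passes one DNA duplex through another, and BAF, a complex that moves nucleosomes with energy from ATP. Wild-type ES cells received 1 µM ICRF-193, a catalytic inhibitor of topoisomerase II, or DMSO, for 24 h (2 libraries per group) or for 1 h (3 libraries per group). The 1 h groups follow the sample titles, because the treatment protocol states 24 h for all wild-type cells. Brg1 fl/fl cells, with the ATPase of BAF flanked by loxP sites, and Baf53a fl/- cells, with 1 allele of this actin-related subunit already missing, both carry a tamoxifen-inducible Actin-CreER. They received 0.8 µM tamoxifen or ethanol for 24 h, followed by 48 h without either (2 libraries per group and line). The ethanol controls of the Baf53a line thus also lack 1 allele. Replicates are passages of a line, and the p-values therefore cover variation from passage to passage and library to library only. The deleted genes and ES cell markers could not be checked, since peaks carry no gene names.

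Mouse chromosomes are telocentric, with the centromere at one end. Next to it lie long arrays of major satellite repeats, which gather with other centromeres into chromocenters of constitutive heterochromatin and are largely missing from the assembled sequence. The first assembled bases therefore mark where unique sequence begins, mixed with duplicated and satellite-like stretches that the assembly holds. No region of chromosomes 1 to 19 lay before position 3000000. Sequences are not printed, because a genome of the mm9 build was not used here. The regions are named by mm9 coordinates only, since a gene annotation on mm9 was not used here. The sources used here do not say how reads that fit several repeat copies were placed.

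The lists held 46431 to 129880 peaks, of which 897 to 1974 lay in pericentromere-proximal regions. No read counts were given, so the read depth is unknown and the length of a list can reflect it. A single library had a peak in 14.1% to 32.1% of the 5765 regions. Of all regions in the set, 3055 (53.0%) had a peak in 1 library, 2346 (40.7%) in several, and 364 (6.31%) in all 18. On the rest of the chromosomes, 55.0% of regions had a peak in 1 library and 4.78% in all 18. Replicates of a group shared 38.3% to 49.3% of the set's regions that either of a pair held, and 32.8% to 45.9% on the rest.

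In the 9 control libraries the set was slightly denser in peaks, wider and higher in score than the rest of the same chromosomes. Density was 44.7 ± 8.02 peaks per Mb in the set and 41.0 ± 9.27 peaks per Mb on the rest (SD, n = 9). The log2 ratio was 0.14 ± 0.090 and was above 0 in 9 of 9 control libraries (exact sign-flip permutation p = 0.003906, the smallest possible, adjusted p = 0.007812 over 4 measures, two-sided). It was only 0.00041 in the longest control list (DMSO 1 h replicate 3, 129880 peaks). In the shortest (DMSO 1 h replicate 2, 58532 peaks) it was 0.29. Over all 18 libraries 17 were above 0, with the lowest at -0.026 in ICRF-193 24 h replicate 1. The part of list length was not tested. The call did not hold with chromosome 11 left out or over a wider stretch. The log2 ratio was 0.042 (exact permutation, adjusted p = 0.2070) without chromosome 11, and -0.0081 (exact permutation, adjusted p = 0.7148) over the first 4 Mb of each chromosome. The median peak width was 217 ± 13.4 bp in the set and 209.9 ± 10.1 bp on the rest, wider in 8 of 9 libraries (exact permutation, adjusted p = 0.007812). The mean score percentile, the rank of a peak's score within its own list, was 51.5 ± 0.714 against 49.8 ± 0.0389 and higher in 9 of 9 libraries (exact permutation, adjusted p = 0.007812). A library had a peak in 27.6% ± 5.18 of the set's regions and in 25.5% ± 6.01 of the others (exact permutation, adjusted p = 0.007812, higher in 8 of 9). Over the first 1 Mb, the difference in width (3.72 bp) and in detection (1.65 percentage points) missed the threshold (exact permutation, adjusted p = 0.07812 and 0.05729). These tests cover variation between libraries only, since every library shows the same sites.

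The 19 windows differed far more among themselves than the set differed from the rest. Chromosome 11 held the most regions (645, with 54 in all 18 libraries), followed by chromosome 19 (491 and 31) and chromosome 12 (459 and 29). These 3 windows held 27.7% of the set. Per 10000 peaks of a list, the chromosome 11 window had 22.5 ± 2.85 peaks (SD, n = 18 libraries). The other 2 Mb windows of that chromosome averaged 10.9, a fold of 2.06, and the chromosome 11 window ranked 3rd of 59 by density. The chromosome 19 window had 15.02 ± 1.86 peaks per 10000 and ranked 3rd of 29, and the chromosome 12 window had 12.3 ± 1.35 and ranked 9th of 59. The chromosome 7 window had the largest fold over its own chromosome, 2.21.

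At the other end, the window of chromosome 14 was nearly empty. It held 16 regions, none with a peak in all 18 libraries, and 0 to 6 peaks per list. Its mean of 0.168 peaks per 10000 was the lowest of the 61 windows of that chromosome. The chromosome 3 window held 115 regions with 2.44 ± 0.719 peaks per 10000, and the chromosome 15 window 131 regions with 3.26 ± 0.762. Both lay below the mean of their chromosome in all 18 libraries, as did the windows of chromosomes 10, 14, 17 and 18. The windows of chromosomes 7, 8, 11, 12, 16 and 19 lay above it in all 18. Over the 19 windows 9 were above and 10 below the rest of their chromosome, with a median fold of 0.953, so the higher density of the summed set did not describe the typical window.

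**Figure D1:**
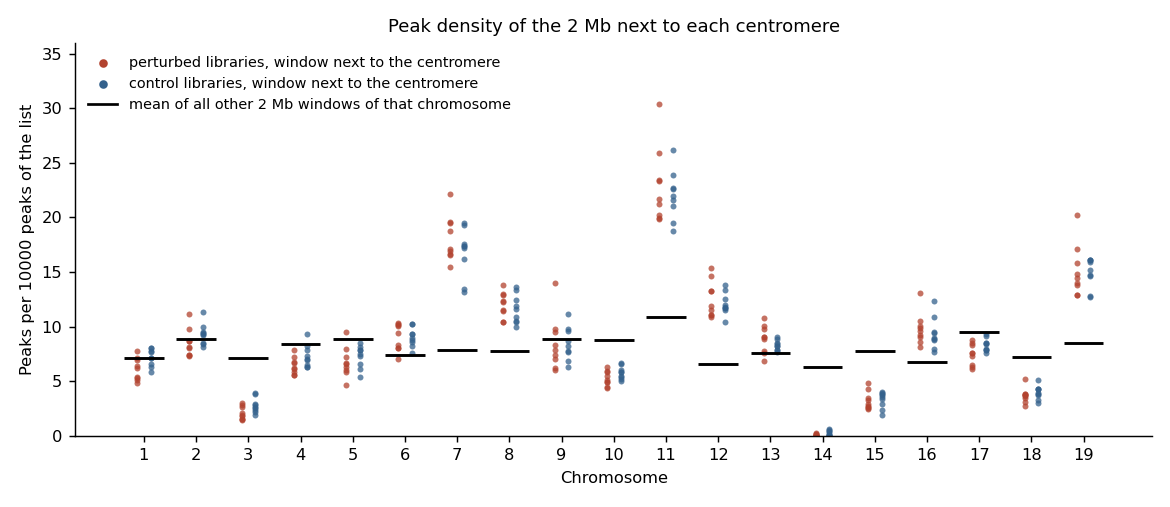
Peaks per 10000 peaks of each list in the 2 Mb window next to the centromere, by chromosome, with 1 point per library (9 perturbed, 9 control). Black lines give the mean of all other 2 Mb windows of that chromosome over the 18 libraries. Chromosomes 7, 11 and 19 stand above their line and chromosomes 3, 14 and 15 below it, in perturbed and control libraries alike.

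The first 100 kb stood apart from the other distance bins in regions found in all libraries. It held 223 regions on 17 chromosomes, of which 35 (15.7%) had a peak in all 18 libraries. In the other 100 kb bins this share was 3.58% to 9.09%. Chromosome 11 supplied 64 of the 223 regions and 16 of the 35, chromosome 17 gave 46 and 4, and chromosome 9 gave 20 and 9. Chromosomes 12 and 19 had no region in this stretch. Peak density by bin ranged from 6.02 ± 0.568 peaks per 10000 at 700 to 800 kb to 11.3 ± 1.43 at 500 to 600 kb, with 10.0 ± 2.50 in the first 100 kb (SD, n = 18). At the outer limit of the set, the last bin inside had 358 regions (6.42% in all 18) and the next 100 kb outside had 311 (6.75%).

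**Figure D2:**
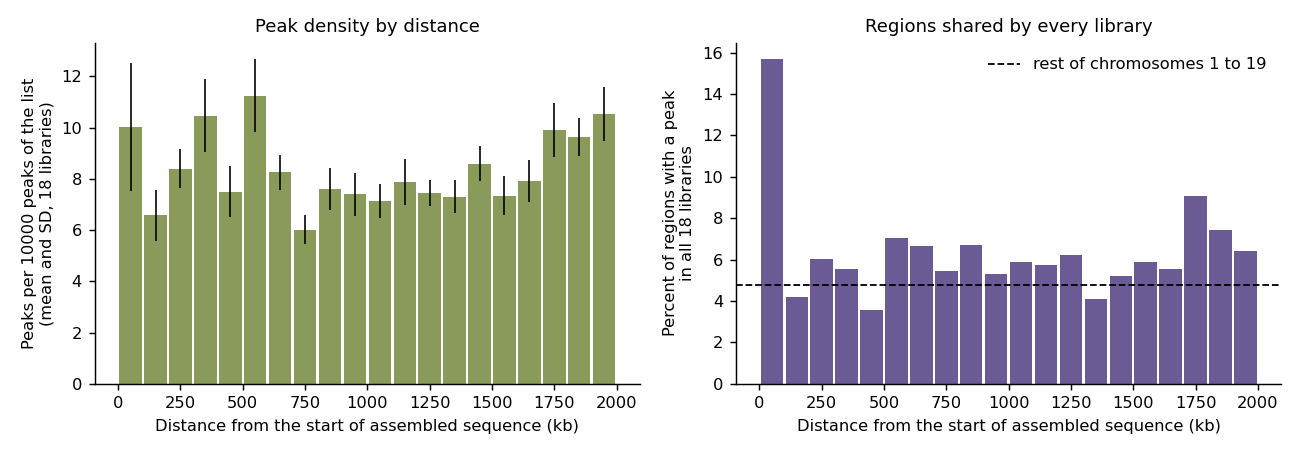
Left, peaks per 10000 peaks of a list in 100 kb bins from the start of assembled sequence, summed over 19 chromosomes (mean and SD of 18 libraries). Right, percent of the regions in each bin with a peak in all 18 libraries, with the rest of chromosomes 1 to 19 (4.78%) as a dashed line. The first bin reaches 15.7% and no other passes 9.09%.

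The first stretch of sequence also held peaks of an unusual shape, narrow and with scores among the highest of each list. The region on chromosome 12 from 3109870 to 3110121 was 252 bp wide. Its peak ranked between 2 and 5 of all peaks in every list (score 244.7 at the lowest, 253.3 at the median and 266.1 at the highest of 18 lists). The region on chromosome 6 from 3151303 to 3151668 (366 bp) ranked between 6 and 10, and that on chromosome 9 from 3000292 to 3000656 (365 bp) between 13 and 24. The 5 strongest regions of the set also included chromosome 9 from 3023466 to 3023594, 129 bp wide, with a mean percentile of 99.8 ± 0.176 (SD, n = 18 lists). Only 1 of the 5 lay further in and was broad, chromosome 9 from 4375997 to 4376991 (995 bp, percentile 99.9 ± 0.0716). All 5 were chosen among regions with a peak in all 18 libraries, so their presence in every group is no result.

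Narrow strong regions were then counted with limits chosen after the data were examined, a mean percentile of 95 or more and a width under 400 bp, among regions with a peak in all 18 libraries. In the first 200 kb, 9 of 15 strong regions (60.0%) were narrow, with a median width of 366 bp. Beyond 200 kb, 1 of 52 strong regions of the set (1.92%) was narrow, and their median width was 1016 bp. On the rest of the chromosomes 25 of 2779 (0.900%) were narrow, and the median width of the 2779 was 1031 bp. These 25 lay on 13 chromosomes. The strongest, on chromosome 9 from 35112800 to 35113176 (377 bp), had a mean percentile of 99.9987. This was above the 99.9964 of the strongest region of the set, on chromosome 12. Of the 10 narrow strong regions of the set, 6 lay within 26 kb of the assembled start of chromosome 9, from 3000010 to 3025630. The others were on chromosomes 5, 6, 12 and 17. These counts are a description with no test.

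**Figure D3:**
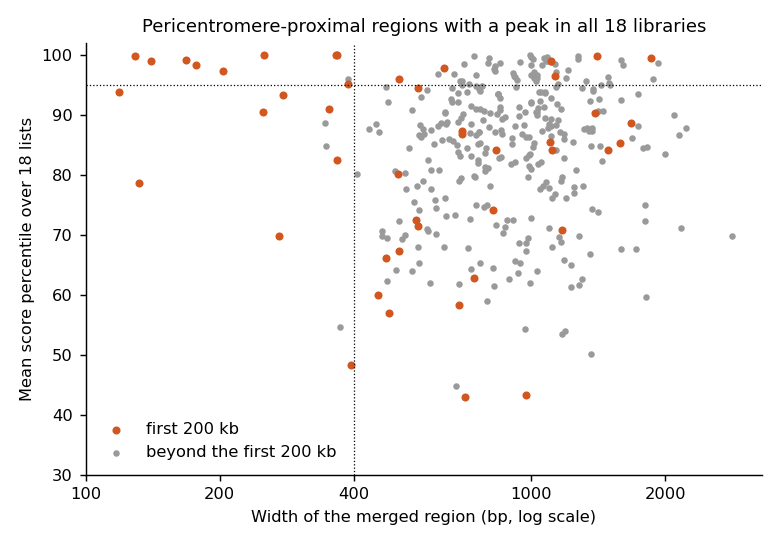
Width of the merged region (bp, log scale) against its mean score percentile over 18 lists, for the 364 pericentromere-proximal regions with a peak in all 18 libraries. Orange points lie in the first 200 kb and grey points beyond. Dotted lines mark 400 bp and the 95th percentile, and 9 of the 10 points in the upper left corner are orange.

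The share of peaks in the set was compared between perturbed and control libraries, but no single contrast could pass a threshold of 0.05. The smallest possible exact permutation p was 0.3333 with 2 libraries per group and 0.1 with 3. These p-values therefore cannot decide whether the groups of a contrast differ. Only the test averaged over the contrasts, given below, could pass. With ICRF-193 for 24 h, 1.48% and 1.58% of peaks lay in the set, against 1.65% and 1.55% with DMSO. The groups overlapped (log2 change -0.066, two-sided exact permutation p = 0.6667, smallest possible 0.3333). With equal numbers of top-scoring peaks they did not, at 1.51% and 1.58% against 1.67% and 1.63% with DMSO (log2 change -0.094, exact permutation p = 0.3333). Leaving out 1 library at a time gave log2 changes of -0.11 to -0.020. With ICRF-193 for 1 h the shares were 1.56%, 1.77% and 1.63%, against 1.61%, 1.84% and 1.51% with DMSO (log2 change 0.0052, exact permutation p = 1, smallest possible 0.1). The direction at 1 h turned with several settings and stood at -0.011 with equal numbers of top-scoring peaks per list. After Brg1 deletion the shares were 1.75% and 1.97%, against 1.75% and 1.80% in ethanol (log2 change 0.060, exact permutation p = 1). Without tamoxifen replicate 2, the shortest list of the series with 46431 peaks, the change was -0.025.

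After Baf53a deletion both tamoxifen libraries (1.63% and 1.61%) lay below both ethanol libraries (1.66% and 1.74%), a log2 change of -0.072. The exact permutation p was 0.3333, the smallest possible with 2 libraries per group. The groups overlapped in the upper 50% of each list by score (-0.025, exact permutation p = 0.6667) and with equal numbers of peaks over all 18 lists (-0.033, exact permutation p = 1). They also overlapped with windows of 1 Mb (-0.048) and 4 Mb (-0.052). The groups stayed apart with equal numbers of peaks within the contrast (-0.094), without chromosome 11 (-0.069) and without the first 100 kb (-0.082). They also stayed apart with only peaks on chromosomes 1 to 19 as the total (-0.074) and by peak midpoint (-0.072). In each of these settings the exact permutation p was again 0.3333. Leaving out 1 library at a time gave -0.10 to -0.039. By replicate number, the log2 changes were -0.16 and 0.024 for ICRF-193 at 24 h, -0.041, -0.051 and 0.11 at 1 h, -0.0057 and 0.13 after Brg1 deletion, and -0.027 and -0.12 after Baf53a deletion. Averaged over the 4 contrasts, the log2 change was -0.018 (exact permutation within contrasts, p = 0.6352, smallest possible 0.000463), lower in 6 of 9 numbered pairs. Changes of opposite sign cancel in this mean, so it cannot decide whether single contrasts changed. The change was below 0 at 24 h of ICRF-193 and after Baf53a deletion, and above 0 in the others. List length moved with the share of peaks, since the 3 shortest lists, with 46431, 58532 and 50611 peaks, had shares of 1.97%, 1.84% and 1.77%, which were among the 4 highest. Its part in the result was not tested. With equal numbers of peaks within each contrast, the mean change was -0.039 (exact permutation p = 0.1991).

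**Figure D4:**
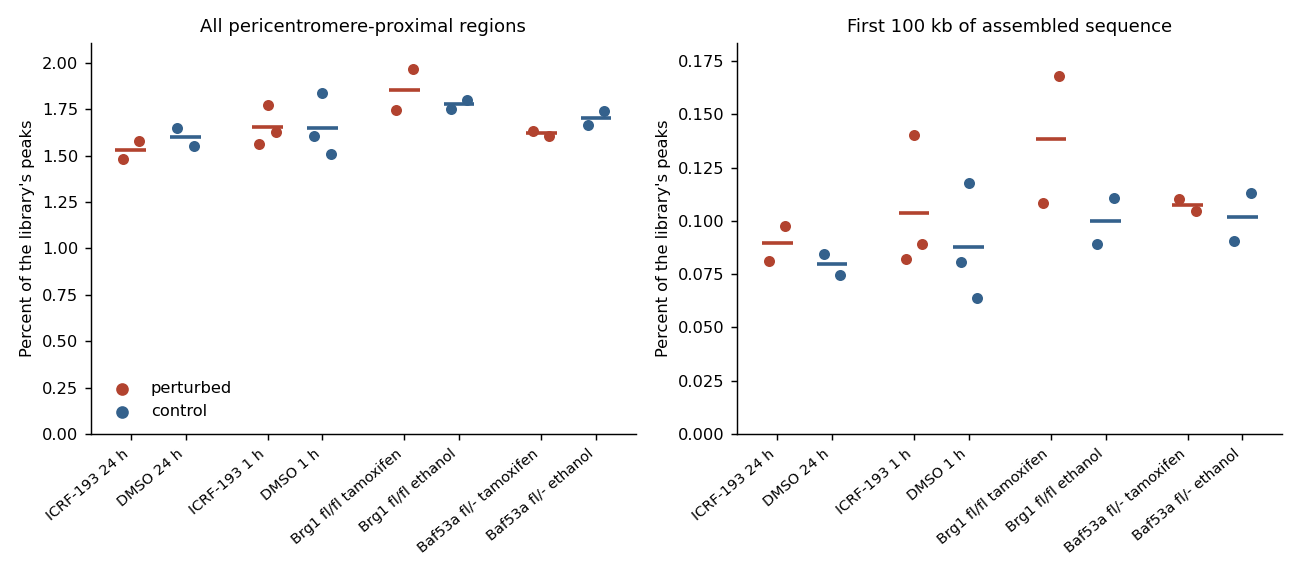
Percent of each library's peaks that lie in pericentromere-proximal regions (left) and in the first 100 kb of assembled sequence (right), with 1 point per library and a line at the group mean. Perturbed and control points overlap in all contrasts but the left panel's Baf53a pair. The highest point in both panels is tamoxifen replicate 2 of the Brg1 line.

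In the first 100 kb alone, the mean share of peaks was above that of the controls in all 4 perturbed groups. After Brg1 deletion this stretch held 92 and 78 peaks (0.109% and 0.168% of the list), against 96 and 94 peaks (0.0893% and 0.111%) in ethanol. The number of peaks there thus stayed within 78 to 96, while the lists ran from 46431 to 107473 peaks. After Baf53a deletion the stretch held 98 and 91 peaks, against 100 and 95 in ethanol. ICRF-193 gave 80 and 75 peaks at 24 h, against 83 and 95 with DMSO. At 1 h it gave 83, 71 and 85 peaks, against 98, 69 and 83 with DMSO. None of these differences was tested. List length moved with the share here too.

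Window by window, no pericentromere-proximal window was called in any contrast by the main fit, which used full lists and no term for replicate number. After Brg1 deletion this depended on the fit, since 5 were called with the replicate number as a block and 2 with equal numbers of peaks. Calls rose over all windows too, to 188 of 1202 with the block and 86 of 1201 with equal numbers. The main fit was limma on peaks per list total, over the 1202 windows of 2 Mb on chromosomes 1 to 19 with a mean of 10 or more peaks. It covered 18 of the 19 windows next to a centromere, since chromosome 14 had too few peaks. Limma called 0 of the 18 after Brg1 deletion, where it called 14 of all 1202 windows (1.16%), 3 of them higher (0.25%) and 11 lower (0.915%), and 5 of the 18 had an unadjusted p under 0.05 against 281 of 1202. With quantile normalization the balance over all windows turned, to 13 higher and 8 lower, with none next to a centromere. As deposited, limma called 0 of 1202 windows (0%) in the other contrasts. There, 3 of the 18 had an unadjusted limma p under 0.05 at 24 h of ICRF-193, 1 at 1 h and 1 after Baf53a deletion, against 154, 26 and 57 of 1202. The median log2 change over the 18 windows was 0.053 after Brg1 deletion, -0.12 after Baf53a deletion, -0.062 at 24 h of ICRF-193 and -0.012 at 1 h. Over all windows the medians were -0.040 after Brg1 deletion, -0.0061 after Baf53a deletion, -0.019 at 24 h of ICRF-193 and -0.012 at 1 h.

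After Brg1 deletion the largest fitted decrease was on the sparse chromosome 3 window. It held 18 and 7 peaks in tamoxifen libraries, against 42 and 25 in ethanol. Scaled to the lists this was 2.12 and 1.51 against 3.91 and 2.94 peaks per 10000, and the groups did not overlap (log2 change -0.88, SE 0.33, limma adjusted p = 0.1124). It was called with equal numbers of peaks (-1.10, SE 0.33, limma adjusted p = 0.03195), and its adjusted p ran from 0.02815 to 0.5818 over 9 alternatives. The chromosome 4 window came closest to the threshold, with 53 and 27 peaks in tamoxifen libraries against 100 and 70 in ethanol. Per 10000 this was 6.25 and 5.82 against 9.30 and 8.23 (log2 change -0.53, SE 0.15, limma adjusted p = 0.05390, range over alternatives 0.007548 to 0.3850). The windows of chromosomes 1 and 2 missed the threshold as well, at -0.45 and -0.37 (limma adjusted p = 0.1032 and 0.1199). With the replicate number as a block, the limma adjusted p was 0.02923 for chromosome 1, 0.03099 for chromosome 2, 0.02815 for chromosome 3 and 0.007548 for chromosome 4. The deposited names carry one prefix for replicate 1 and another for the later replicates, and whether this marks a batch is not given in the labels.

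The largest fitted increase after Brg1 deletion was on chromosome 9, in share and not in number of peaks. The tamoxifen libraries had 83 and 65 peaks, against 120 and 65 in ethanol, which became 9.79 and 13.999 against 11.2 and 7.65 peaks per 10000 with overlapping groups (log2 change 0.34, SE 0.18, limma adjusted p = 0.2365). With equal numbers of peaks the chromosome 19 window was called as higher (0.40, SE 0.12, limma adjusted p = 0.03818), against 0.28 (adjusted p = 0.1842) as deposited. As deposited, that window held 145 and 94 peaks in tamoxifen libraries and 157 and 137 in ethanol.

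In the other contrasts the largest fitted changes of these windows were smaller, and none was called. ICRF-193 for 24 h had its largest fitted decrease on chromosome 3 too, with 18 and 11 peaks against 23 and 36 with DMSO (log2 change -0.65, SE 0.33, limma adjusted p = 0.3965). Its largest increase was on chromosome 16, with 97 and 71 peaks against 88 and 98 with DMSO (0.20, SE 0.15, limma adjusted p = 0.5830). At 1 h the largest decrease was on chromosome 5, with 47, 32 and 63 peaks against 74, 46 and 95 with DMSO (-0.28, SE 0.13, limma adjusted p = 0.9908). Chromosome 16 again had the largest increase (0.19, SE 0.12, limma adjusted p = 0.9908). Baf53a deletion gave its largest decrease on chromosome 18, with 34 and 24 peaks against 47 and 36 in ethanol (-0.39, SE 0.23, limma adjusted p = 0.9533). Its largest increase was on chromosome 15, with 38 and 42 peaks against 43 and 32 in ethanol (0.24, SE 0.27, limma adjusted p = 0.9831). Limma called none of the 18 windows as changed unequally by Brg1 and by Baf53a deletion (lowest adjusted p = 0.3026, with 4 at an unadjusted p under 0.05). The same held between 24 h and 1 h of ICRF-193 (lowest limma adjusted p = 0.8537, with 1 at an unadjusted p under 0.05). In all windows together 0 of 1202 were called in either test (0%).

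A region counted as lost when all control lists of a contrast held it and none of the perturbed lists did, and as gained when this was turned round. In every contrast the perturbed lists were on average shorter than the control lists. Mean lengths were 65597 and 96240 peaks for Brg1 deletion, and 87844.5 and 97210.5 for Baf53a deletion. For ICRF-193 they were 87669 and 112598 at 24 h, and 82316 and 103307 at 1 h. The part of list length in losses and gains was not tested. After Brg1 deletion 218 of 1035 control-shared regions of the set (21.1%) were lost, against 23.8% over all such regions of chromosomes 1 to 19. With ICRF-193 for 24 h 192 of 1108 (17.3%) were lost, against 15.5% over all, and after Baf53a deletion 114 of 987 (11.6%), against 11.1%. At 1 h, under the stricter rule of 3 against 3 libraries, 21 of 750 (2.80%) were lost, against 2.28%. Gains were few. They numbered 37 of the 617 regions shared by the Brg1 tamoxifen libraries (6.00%, against 5.02% over all) and 42 of 782 with ICRF-193 for 24 h (5.37%, against 5.48%). There were 32 of 824 after Baf53a deletion (3.88%, against 5.52%) and 1 of 603 at 1 h (0.166%, against 0.379%). The set's share of losses lay below the background after Brg1 deletion and above it in the other contrasts. Its share of gains lay above the background after Brg1 deletion and below it in the other contrasts. Most shares were near the background, and none of the differences was tested.

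Loss fell with score in the set as it did elsewhere. Control-shared regions were ordered into 5 equal classes by mean score percentile in the control lists. After Brg1 deletion the set lost 43.9% of its weakest class and 2.81% of its strongest (7 of 249), and the rest lost 48.5% and 2.54%. With ICRF-193 for 24 h the set lost 45.1% and 0.391% (1 of 256), and the rest 40.8% and 0.178%. Between these ends the direction was mixed. At 24 h of ICRF-193 the set lost 20.2% of class 2 against 22.3% on the rest, 17.1% of class 3 (37 of 217) against 11.1%, and 6.42% of class 4 (14 of 218) against 3.14%. After Brg1 deletion the set lost less in all 3 of these classes, 31.2% against 33.0%, 21.9% against 23.4%, and 8.02% (15 of 187) against 11.9%. After Baf53a deletion it lost more in these classes, with 3.57% of class 4 (6 of 168) against 1.18%. None of these differences between the set and the rest was tested.

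**Figure D5:**
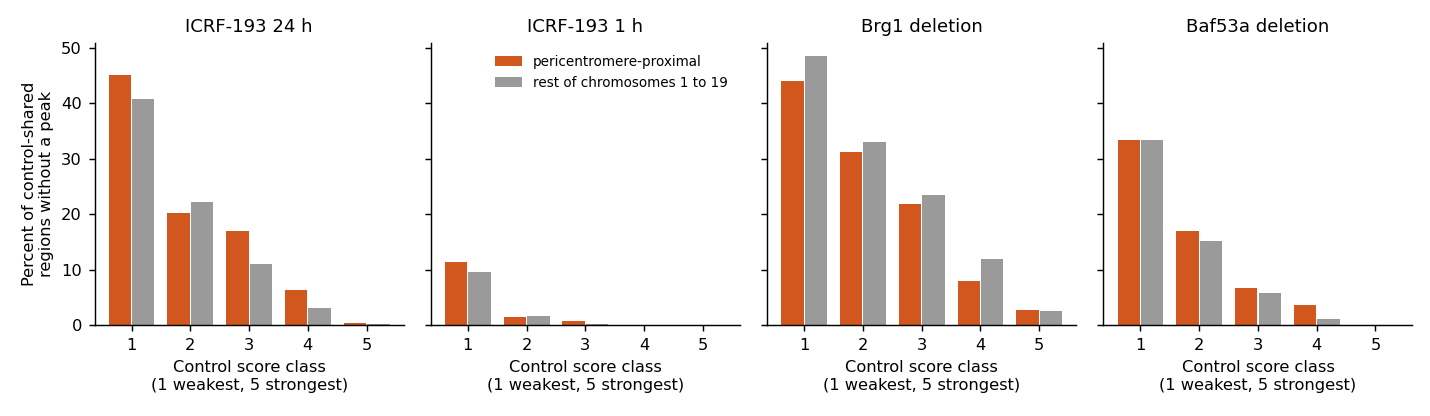
Percent of control-shared regions that had no peak in any perturbed library, by score class in the control lists (1 weakest, 5 strongest), for pericentromere-proximal regions (orange) and the rest of chromosomes 1 to 19 (grey), in 4 contrasts. Both decline from class 1 to class 5, from 43.9% to 2.81% and from 48.5% to 2.54% after Brg1 deletion. The 1 h panel uses 3 against 3 libraries, a stricter rule.

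By distance, the first 200 kb lost 15 of 107 control-shared regions after Brg1 deletion (14.02%), against 203 of 928 further in (21.9%). With ICRF-193 for 24 h it lost 12 of 103 (11.7%), against 180 of 1005 (17.9%). After Baf53a deletion the counts were 10 of 116 (8.62%) and 104 of 871 (11.9%). At 1 h of ICRF-193 the order was the opposite, with 4 of 76 (5.26%) lost in the first 200 kb and 17 of 674 (2.52%) further in. Gains after Brg1 deletion were 9 of 90 (10.0%) in the first 200 kb and 28 of 527 (5.31%) further in. At 24 h they were 1 of 81 (1.23%) and 41 of 701 (5.85%). After Baf53a deletion they were 4 of 98 (4.08%) and 28 of 726 (3.86%), and at 1 h 0 of 73 and 1 of 530. None of these differences by distance was tested. Regions lost after both BAF deletions numbered 19 in the set, which was 8.72% of those lost after Brg1 deletion and 16.7% of those lost after Baf53a deletion. On the rest of the chromosomes these shares were 8.40% and 17.8%.

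The strongest region of the set lost after Brg1 deletion was on chromosome 18 from 3821832 to 3822558, with score percentiles of 88.5 and 93.4 in the ethanol lists. It held a peak in all 14 libraries outside this contrast. The second, chromosome 3 from 3370799 to 3371219 (percentile 90.7 ± 8.14, SD, n = 2), was also lost with ICRF-193 for 24 h, and 10 of the 14 other libraries held it. The third, chromosome 17 from 4092397 to 4092880 (89.9 ± 2.54), was also lost after Baf53a deletion. With ICRF-193 for 24 h the strongest lost region was chromosome 8 from 4933904 to 4934492 (87.7 ± 1.53), followed by the chromosome 3 region (74.6 and 92.9) and one on chromosome 6 at 3523326 to 3524101 (82.9 ± 6.68). Baf53a deletion lost chromosome 11 from 3025957 to 3026131 (83.8 ± 5.93), which 1 of 14 other libraries held. It was followed by the chromosome 17 region (81.1 ± 18.2) and by one on chromosome 15 at 4975181 to 4975494 (78.3 ± 4.61). At 1 h the strongest lost region was chromosome 19 from 3357643 to 3357961 (68.8 ± 28.2, n = 3), absent from all 4 libraries of the 24 h experiment. Next came regions on chromosome 19 at 4906350 to 4906819 (55.02 ± 17.9) and on chromosome 2 at 3146381 to 3146676 (53.7 ± 30.3).

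All 3 strongest gains after Brg1 deletion lay within the first 100 kb, and all had a peak in some libraries outside the contrast. Chromosome 17 from 3077827 to 3078038 (percentiles 91.8 and 96.0) also had a peak in 8 of the 14 other libraries. Chromosome 18 from 3008488 to 3008856 (79.4 ± 2.33) had one in 12 of them, and chromosome 11 from 3049729 to 3049900 (68.9 ± 8.43) in 4. With ICRF-193 for 24 h, a region on chromosome 1 at 4837251 to 4837442 (77.2 ± 12.1) and one on chromosome 5 at 4767847 to 4768148 (76.04 ± 0.884) had a peak in both ICRF-193 libraries and in none of the 16 others. The third, chromosome 17 from 4866176 to 4866708 (74.7 ± 4.26), was held by 10 of the 14 libraries outside the contrast. After Baf53a deletion the strongest gain was on chromosome 9 at 3015235 to 3015361 (81.4 ± 7.42), held by 3 of 14 other libraries. Next were chromosome 1 at 3435718 to 3436251 (71.9 ± 24.5, held by 9) and chromosome 17 at 3273654 to 3274039 (63.4 ± 12.5, held by 10). The only gain at 1 h was chromosome 7 from 4233382 to 4233698 (33.3 ± 28.04, n = 3), held by 6 of 12 other libraries.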

How the data were processed

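Each of the 18 ATAC-seq libraries has its own deposited list of peaks, with other values for position (start and end) and a score whose unit the authors do not state. The submitters' processing notes name mm9 as the build and list Bowtie 0.12.9, MACS2 and edgeR 3.12.1 without saying what each did. How reads were shifted, which regions were masked and how peaks were called is not given in the sources used here. Tests and counts used scores only as ranks within a list, and raw scores are printed for the chromosome 12 region alone.

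Peaks that overlap by 1 bp or more were merged. The rest of chromosomes 1 to 19 was taken up to the last peak of any list (38 Mb in the set, 2377 Mb on the rest). A region's percentile in a list is that of its best peak. Coordinates are printed counted from 1. Shares were tested by exact permutation over libraries. Windows of 2 Mb, tiled from 3000000, were fitted with limma 3.58.1 in R 4.3.3 on log2((peaks + 0.5) / list total × 1000), with 1 term per group over 18 libraries, a variance trend and Benjamini-Hochberg adjustment, called under 0.05. The fit was tested on simulated data with changes placed in the Brg1 contrast, in 50 windows per fold change, with 1002 windows left unchanged. It called 64% of windows raised 2-fold and 70% of windows lowered to 0.5-fold. It called 18% of windows changed 1.5-fold or 0.667-fold, and 0.499% of unchanged windows. The simulated spread and the number of changed windows were set values, so these rates need not hold for the real lists. Most changes of 1.5-fold were missed in the simulation, so an uncalled window can hold such a change. Other steps used Python 3.11.15, numpy 2.4.6, pandas 2.3.3 and scipy 1.17.1.

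The regions, windows and tests were chosen with earlier results of these data known. Named regions are the 5 strongest with a peak in all 18 libraries and up to 3 strongest lost and gained per contrast. Named windows are the 3 with the most and the fewest regions, the largest increase and decrease per contrast and, added after their values were seen, chromosomes 1, 2, 4 and 7. Same-numbered libraries deviated together at 1 h of ICRF-193 (correlation of window deviations 0.150, 0.602 and 0.559, all over 0.1). The main tests did not use these numbers as pairs in any contrast, and pairing by number was only an alternative. Replicate 1 correlated better with a library of another number (0.275) than with its own. With 2 pairs, the correlation was -0.027 at 24 h, -0.00091 in the Baf53a line and 0.173 in the Brg1 line. In each of these contrasts 2 pairs are too few to decide. Deposited names of replicate 1 carry another prefix than those of replicates 2 and 3, a possible batch that the labels do not describe.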

Additional observations from a re-analysis of the deposited data

How the results depend on the processing

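Of 206 alternative values for 17 results, 162 kept their direction and side of the threshold, or stayed within the margin for a count or percentage. The log2 change in share at 1 h of ICRF-193 turned to -0.011 with equal numbers of peaks in the contrast, -0.0056 with equal numbers over all lists (added after the data were examined), -0.00019 with 4 Mb windows and -0.010 without the first 100 kb. It ran from -0.057 to 0.084 with single libraries left out, and was below 0 without ICRF-193 replicate 2, DMSO replicate 1 or DMSO replicate 3. After Brg1 deletion it ran from -0.025 to 0.15 with single libraries left out. Over the 4 contrasts it was 0.018 in the upper 50% of each list by score and -0.040 to 0.0033 with single libraries left out, above 0 without DMSO 1 h replicate 2 or Brg1 tamoxifen replicate 1. For the set against the rest, density without chromosome 11 (0.042), density over 4 Mb (-0.0081), width over 1 Mb (3.72 bp) and detection over 1 Mb (1.65 points) lost their calls.

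The percentage of regions lost depends on the definition. With equal numbers of peaks it was 12.8 in the set and 11.6 on the rest with ICRF-193 for 24 h, and 14.8 against 18.9 after Brg1 deletion. When a peak had to cover 50% of its region it was 31.7 against 30.4 at 24 h, 34.2 against 37.6 after Brg1 deletion and 22.3 against 22.6 after Baf53a deletion. Leaving out 1 library at a time, which leaves fewer lists to meet the rule, it was 23.8 to 42.3 at 24 h, 3.2 to 9.58 at 1 h, 24.8 to 44.3 after Brg1 deletion and 17.5 to 33.8 after Baf53a deletion. For Brg1 deletion, limma called 21 windows with quantile normalization (13 higher, 8 lower), 86 with equal numbers (2 next to a centromere), 0 to 48 with single libraries left out (48 when tamoxifen replicate 1 was dropped, 1 for ethanol replicate 1 and 0 for tamoxifen replicate 2), and 188 with the replicate number as a block. Under that block 5 windows next to a centromere were called: chromosomes 1 (-0.45), 2 (-0.37), 3 (-0.88) and 4 (-0.53) as lower and chromosome 11 (0.31) as higher. At 24 h of ICRF-193, 19 windows were called with the block and 1 with quantile normalization, none next to a centromere. Blocking changed no other call. The causes were not tested. Depth is unknown, so what it limits could not be measured.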
